A study of Mus musculus with 4 samples.

Results

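The miR-15 and miR-16 family was followed through mouse molar development with 7 array probes: miR-15a, miR-15b, miR-16, miR-195, miR-322, miR-497 and miR-503. They were taken by name, mature strand only, from 696 miRNA probes. Total RNA came from mandibular molar tooth germs of ICR embryos, an outbred mouse strain, with no treatment, at 4 ages, embryonic day 11 (E11) and days 12, 14 and 16 (E12, E14, E16). A single 1-colour Agilent array was hybridised for each stage, so the 4 stages have no replicates and no difference between them has a p-value or a spread between animals. The labels do not say whether an array held RNA of 1 embryo or of a pool. Errors after ± are the measurement errors that the files state for a signal on its array, combined where values are compared.

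miRNAs of this family pair through their seed, the bases near the 5′ end that select target mRNAs. Their known targets include the cyclins D1 and E1, the phosphatase Cdc25a, the kinases Chek1 and Wee1 and the survival factor Bcl2, and raised levels slow entry into the cell cycle in many cultured cells. In the molar, much of the epithelium and of the neural crest derived mesenchyme proliferates through the bud and cap stages. These points are background and were not measured here.

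All 7 probes matched a mature sequence of RefSeq (build GRCm38.p6) through their names, from 8 miRNA genes, since miR-16 has 2. The sequences are shown because the seed defines the family and the bases after it are what a probe has to tell members apart. Each is given 5′ to 3′ with bases 2 to 8, the seed, in capitals.
mmu-miR-15a: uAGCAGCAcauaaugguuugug
mmu-miR-15b: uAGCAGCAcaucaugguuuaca
mmu-miR-16: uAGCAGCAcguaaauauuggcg
mmu-miR-195: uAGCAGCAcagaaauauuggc
mmu-miR-497: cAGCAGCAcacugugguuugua
mmu-miR-322: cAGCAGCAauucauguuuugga
mmu-miR-503: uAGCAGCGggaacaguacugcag

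Of the 7 members, 6 carried the seed AGCAGCA and miR-503 carried AGCAGCG. RefSeq lists 4 further mature miRNAs with the first seed, and none had a probe of its name on the arrays. Counted from the 5′ end without gaps, the 21 pairs of members were identical at 10 to 19 positions. The most alike pair was miR-16 and miR-195, identical at 19 of 21 positions and differing by G10A and U11G (miR-16 base first). miR-15a and miR-15b were identical at 18 of 22 positions and differed by A12C, G20A, U21C and G22A (miR-15a base first). How far the probes respond to each other's targets was not tested.

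The genes lie in 4 clusters. Mir15a (mature strand at chr14:61632075-61632096, minus strand) and Mir16-1 (chr14:61631936-61631957, minus strand) span 231 bases inside Dleu2, a long noncoding RNA gene. Mir15b (chr3:69009775-69009796, plus strand) and Mir16-2 (chr3:69009918-69009939, plus strand) span 225 bases inside Smc4, which encodes a condensin subunit. Mir497 (chr11:70234730-70234751) and Mir195a (chr11:70235062-70235082), both on the plus strand, span 419 bases. Mir322 (chrX:53054306-53054327) and Mir503 (chrX:53054027-53054049), both on the minus strand, span 366 bases inside the noncoding gene C430049B03Rik. The precursors of the 2 miR-16 genes are printed to show that they differ outside the mature strand, here in capitals, but yield the same one, so the miR-16 signal sums both clusters.
Mir16-1: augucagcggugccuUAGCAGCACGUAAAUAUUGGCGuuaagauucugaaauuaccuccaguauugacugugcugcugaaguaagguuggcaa
Mir16-2: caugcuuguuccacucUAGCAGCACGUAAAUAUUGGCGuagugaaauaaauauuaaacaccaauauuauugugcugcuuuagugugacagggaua

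The arrays detected 5, 6, 7 and 7 members at E11, E12, E14 and E16, against 209, 221, 249 and 250 of all miRNAs. The lowest detected signal per array lay between 5.48 and 7.43, and the median stated error of a detected signal between 9.04% and 9.55%. Epithelial markers (the miR-200 family, miR-205 and miR-203) were detected with 6, 7, 7 and 7 of 7 probes and held 1.30%, 2.05%, 2.44% and 4.64% of the summed detected signal. Mesenchymal markers were detected with 6 of 7 probes at every stage and held 7.94%, 10.3%, 5.10% and 6.38%. They did not move together from E11 to E16 on log2 signals scaled as described below. There miR-143 (1.67) and miR-140 (0.73) were higher, and miR-199a-3p (-1.25), miR-199a-5p (-0.77), miR-199b* (-0.40) and miR-214 (-2.51) lower. None of 7 muscle probes was detected. Of 3 erythroid probes, 1, 1, 1 and 2 were detected, with 0.294%, 0.256%, 0.303% and 0.609% of the summed detected signal. The 2 endothelial probes held 0.174%, 0.271%, 0.194% and 0.392%. From 0 to 2 of 5 leukocyte and 2 to 4 of 7 neural probes were detected. These mixtures move with the stage, their part in the family's values was not tested, and fewer cells of a type cannot be told apart from less RNA per cell.

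Signals are first given as deposited, in the arrays' own units and not scaled between arrays. Probes differ in affinity, so no member's signal is set against another's as an amount. Values follow in order of age. For mmu-miR-15a, the Dleu2 member, the signal was 100.2 ± 8.60, 189.8 ± 14.9, 211 ± 15.8 and 509.8 ± 36.7. Its signal was higher at each later stage, with the largest step between E14 and E16. For mmu-miR-16, made from both Dleu2 and Smc4, it was 539.7 ± 41.9, 837 ± 64.2, 839 ± 64.2 and 1287 ± 98.7. E12 and E14 lay within their errors of each other, below E16 and above E11. For mmu-miR-15b, the Smc4 member, it was 706 ± 50.7, 734 ± 52.9, 856 ± 61.4 and 934 ± 67.1, the narrowest course of the 5 members detected on all arrays.

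The chromosome 11 cluster was dim. The signal of mmu-miR-195 was 13.1 ± 3.67, 26.4 ± 5.24, 29.0 ± 4.58 and 79.5 ± 8.48 in order of age, with E16 far outside the errors of the other stages. At E11 its signal was 3.59 times its error, which makes every difference from E11 imprecise for this probe. From the same cluster, mmu-miR-497 was not detected at E11 or E12 and measured 38.1 ± 5.73 at E14 and 73.0 ± 7.92 at E16.

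The X-linked pair was first detected at different stages. The signal of mmu-miR-322, the mouse counterpart of human miR-424, was 106 ± 8.98, 265 ± 20.0, 224 ± 16.9 and 388 ± 28.4 in order of age. At E14 it was lower than at E12, the only such step among the members on the deposited signals. With a seed of its own, mmu-miR-503 was not detected at E11 and measured 28.1 ± 5.32, 28.3 ± 4.53 and 93.9 ± 9.32 at E12, E14 and E16. E12 and E14 were level and E16 stood clear of both.

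**Figure D1:**
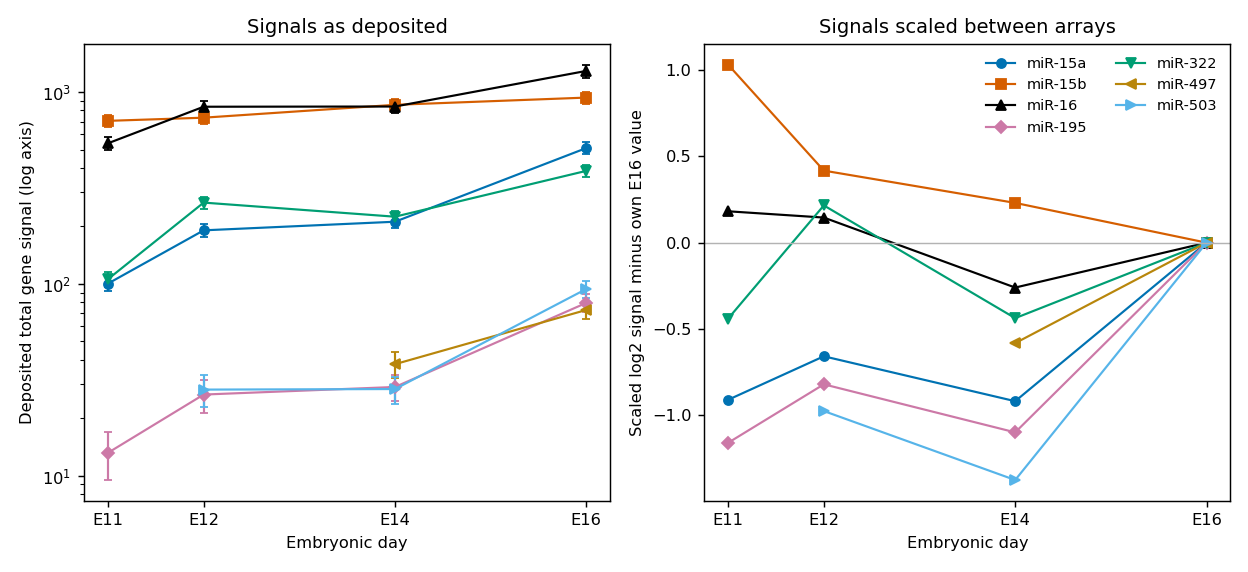
Signals of the 7 family members by embryonic day. Left, deposited total gene signal on a log axis with the stated error of each signal as bars. Right, log2 signal scaled between arrays, minus the same probe's E16 value, without error bars; undetected values are left out. On the left miR-15a goes from 100.2 to 509.8 while miR-15b goes from 706 to 934, and on the right miR-15b alone starts more than 1 log2 unit above its E16 value.

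For comparisons between stages, log2 signals were taken relative to each array's 75th percentile over the 197 miRNAs detected on all arrays. This percentile was higher than at E11 by 0.67, 1.08 and 1.44 on the log2 scale at E12, E14 and E16, so the scaling decides whether a member with a small change reads as higher or lower. Differences are therefore read beside the median over every miRNA that both arrays detected. A member counted as higher or lower where it differed by at least 2-fold, a rule of size and not of significance.

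From E11 to E16 the members differed in their change, over a range of 2.19 log2 units. The quartiles of all 205 miRNAs were -1.31 and 0.26. On the scaled log2 scale miR-195 was higher by 1.16 ± 0.43 (2.24-fold) and miR-15a by 0.91 ± 0.16 (1.88-fold). miR-322 was higher by 0.44 ± 0.16, and miR-16, at -0.18 ± 0.16, was close to its error of 0. miR-15b was lower by 2.05-fold (-1.03 ± 0.15). By the 2-fold rule, 1 of the 5 members with a value on both arrays was higher and 1 lower, where 13.7% and 37.6% of 205 miRNAs passed in each direction.

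Over this interval the members' median difference was 0.44, against -0.74 for all 205 miRNAs. With the median of all as the reference, a comparison that a constant scaling cannot alter, miR-195 lay 1.90 above it, miR-15a 1.66, miR-322 1.18 and miR-16 0.56, and miR-15b 0.29 below it. Counted from the highest difference, miR-195 ranked 26 of 205, miR-15a 30, miR-322 46, miR-16 77 and miR-15b 130. By more than 2 combined errors, 4 of 5 members lay above the median of all, which held for 39.5% of all miRNAs, and 0 lay as far below it, which held for 28.3%.

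miR-497 and miR-503 could not be placed on this scale, since E11 gave only an upper limit for them. Against the lowest detected signal of the E11 array, miR-503 was at least 6.34-fold higher at E16 and miR-497 at least 4.93-fold. Without scaling these limits were 17.1-fold and 13.3-fold. They are nominal, because a probe with a large error can be undetected above the lowest detected signal. Of the 487 miRNAs undetected at E11, 9.24% were detected at E16.

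**Figure D2:**
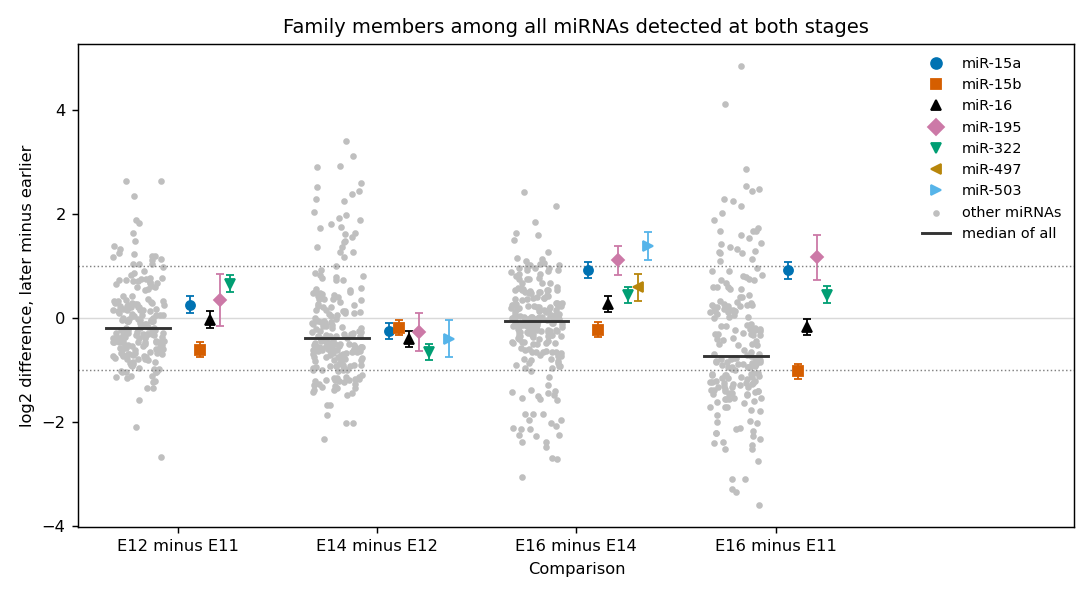
log2 differences between stages, later minus earlier, on the scaled signals. Grey points are the other miRNAs detected at both stages, black lines the median of all of them, coloured symbols the family members with combined measurement errors as bars, and dotted lines mark 2-fold. From E11 to E16 the members run from -1.03 (miR-15b) to 1.16 (miR-195), and from E12 to E14 all 6 measured members lie below 0, which for 5 of them turns without scaling.

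Between E11 and E12, when the dental epithelium thickens and starts to form a bud, miR-322 had the largest difference among the 5 members detected on both arrays, 0.66 ± 0.16 (1.58-fold higher). miR-195 was at 0.34 ± 0.49 and miR-15a at 0.25 ± 0.17, neither beyond 2 errors. miR-16 was at -0.04 ± 0.16 and miR-15b at -0.61 ± 0.15. None of 5 members passed 2-fold, against 9.45% of 201 miRNAs higher and 8.46% lower. The members' median was 0.25 and that of all miRNAs -0.20. miR-322 lay above the latter by more than 2 errors, as did miR-15a, and miR-15b lay below it by more than 2 errors; 28.4% and 22.9% of all miRNAs did so. miR-503, detected from E12, was at least 3.22-fold higher than at E11 (5.12-fold on the deposited signals), and 4.11% of miRNAs undetected at E11 were detected at E12.

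Between E12 and E14, from bud to cap, the members stayed close to the rest of the miRNAs. The 6 members detected at both stages ran from -0.65 ± 0.15 (miR-322) to -0.19 ± 0.15 (miR-15b), with miR-16 at -0.41 ± 0.16, miR-503 at -0.40 ± 0.36, miR-195 at -0.28 ± 0.37 and miR-15a at -0.26 ± 0.16. Their median was -0.34 beside -0.40 for all 212 miRNAs. No member passed 2-fold, against 12.7% of all miRNAs higher and 15.1% lower, and no member lay more than 2 errors above or below the median of all, as 31.1% and 21.2% of miRNAs did. Without scaling 5 of these 6 differences were above 0, by 0.22 at most, and only miR-322 stayed below 0 at -0.24. miR-497 was first detected at E14, at least 3.86-fold higher than at E12 (5.13-fold on the deposited signals); 7.79% of miRNAs undetected at E12 were detected at E14.

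Between E14 and E16, from cap to bell, most of the family was higher. miR-503 was 2.60-fold higher (1.38 ± 0.27) and miR-195 was 2.14-fold higher (1.10 ± 0.28). miR-15a was 1.89-fold higher (0.92 ± 0.15), miR-497 at 0.58 ± 0.27, miR-322 at 0.44 ± 0.15 and miR-16 at 0.26 ± 0.16. miR-15b was at -0.23 ± 0.15, and at 0.13 without scaling. All 7 members now had a value on both arrays, and by the 2-fold rule 2 were higher and 0 lower, where 7.36% and 13.4% of 231 miRNAs passed. With miR-15a past 2-fold as well, 3 were higher and 0 lower under the percentile over all probes (12.1% and 12.6% of all), median scaling (13% and 12.6%) and no scaling (15.6% and 12.1%), and 3 were higher at 1.5-fold (16% and 23.4%).

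The members' median over this step was 0.58 and that of all miRNAs -0.06. By more than 2 errors, 6 of 7 members lay above the median of all, against 27.3% of all miRNAs, and 0 below, against 23.8%. miR-503 ranked 7 of 231, miR-195 ranked 11 and miR-15a ranked 24. miR-15b was the exception, ranking 143.

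Over the whole course, the order of the stages differed between members on the scaled signals. For miR-15a, E16 was highest, and E11, E12 and E14 differed from each other by at most 0.26, within 2 errors. miR-195 followed the same order of a high E16 and 3 lower stages, and among members its course was the nearest to that of miR-15a (root mean square difference 0.09 between log2 profiles centred on their own means). That measure leaves out the stated errors, which for miR-195 were 10.7% to 27.9% of its signal. miR-15b was lower at each of the 3 steps, as were 32.0% of the 197 miRNAs detected on all arrays. Its steps from E12 to E14 and from E14 to E16 lay within 2 errors of 0. With median scaling those steps were at 0.05 and 0.02, and on the deposited signals miR-15b was higher at each step. miR-322 was highest at E12, with E16 at -0.22 ± 0.15 from it, and E11 and E14 level (0.00 ± 0.16), but with median scaling E16 was above E12 by 0.27 and without scaling by 0.55, and E14 was above E11 by 0.27 and 1.08. miR-16 was lowest at E14, and its other stages differed by at most 0.18. Without scaling E11 was the lowest stage of all 5 members, E14 exceeding it by 1.07 for miR-15a, 1.14 for miR-195 and 0.64 for miR-16.

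Differences between members within the arrays do not depend on a constant scaling, so they show unequal change more firmly than the single differences. Of the 10 pairs among the 5 members detected at E11 and E16, 8 differed in their change by more than 2 combined errors. The pairs that did not were miR-15a with miR-195 (-0.25 ± 0.46) and miR-195 with miR-322 (0.72 ± 0.46). The widest was miR-15b against miR-195, at -2.19 ± 0.45. Pairs of other miRNAs were not counted, so the 8 are not read as particular to the family. Of all 205 miRNAs, 39.5% lay more than 2 errors above the median of all and 28.3% as far below it. With quantile normalization 6 of the 10 pairs exceeded 2 errors, and those lost were miR-322 with miR-16 (0.38) and miR-15a with miR-322 (0.40).

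The near-identical miR-15a and miR-15b, made from different clusters, went apart. The signal of miR-15a over that of miR-15b was 0.142 ± 0.016, 0.259 ± 0.028, 0.246 ± 0.025 and 0.546 ± 0.056 in order of age. Between the first and last stage this ratio was 3.85-fold higher (log2 1.94 ± 0.22), in steps of 0.87 ± 0.22, -0.07 ± 0.21 and 1.15 ± 0.21. The E11 to E12 and E14 to E16 steps exceeded 2 errors and the E12 to E14 step did not.

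miR-15a and miR-15b were each also set against miR-16, whose signal sums both clusters. Both ratios share that signal, so they are not independent readings and neither is confined to its cluster. miR-15a over miR-16 was 0.186 ± 0.021, 0.227 ± 0.025, 0.251 ± 0.027 and 0.396 ± 0.042, a change of 1.09 ± 0.23 on the log2 scale from E11 to E16. miR-15b over miR-16 was 1.31 ± 0.14, 0.877 ± 0.092, 1.02 ± 0.11 and 0.726 ± 0.076, a change of -0.85 ± 0.22. Between these 2 stages the change of miR-16 thus lay between those of its cluster partners, while from E12 to E14 it lay below both, within 2 errors of each. How much of miR-16 came from each of its genes cannot be told apart on these arrays.

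The X-linked partners also changed unequally. miR-322 over miR-503 was 9.44 ± 1.93, 7.91 ± 1.40 and 4.13 ± 0.51 at E12, E14 and E16. Relative to E12, miR-503 at E16 had gained 2.29-fold on miR-322 (log2 -1.19 ± 0.34 for miR-322 relative to miR-503). The E14 to E16 part of this, -0.94 ± 0.31, exceeded 2 errors, and the E12 to E14 part, -0.25 ± 0.39, did not. On chromosome 11, miR-195 over miR-497 was 0.760 ± 0.17 at E14 and 1.09 ± 0.17 at E16, a change of 0.52 ± 0.38 that did not exceed 2 errors. miR-322 gained 2.41-fold on miR-15b from E11 to E12 (1.27 ± 0.22). Its change relative to miR-15b was -0.47 ± 0.21 from E12 to E14 and 0.67 ± 0.21 from E14 to E16, and with quantile normalization, which is not constant within an array, -0.24 and 0.32, neither beyond 2 errors. Against miR-16 it was 0.69 ± 0.23 from E11 to E12 and 0.62 ± 0.23 from E11 to E16, and with quantile normalization 0.61 and 0.38, the latter within 2 errors.

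**Figure D3:**
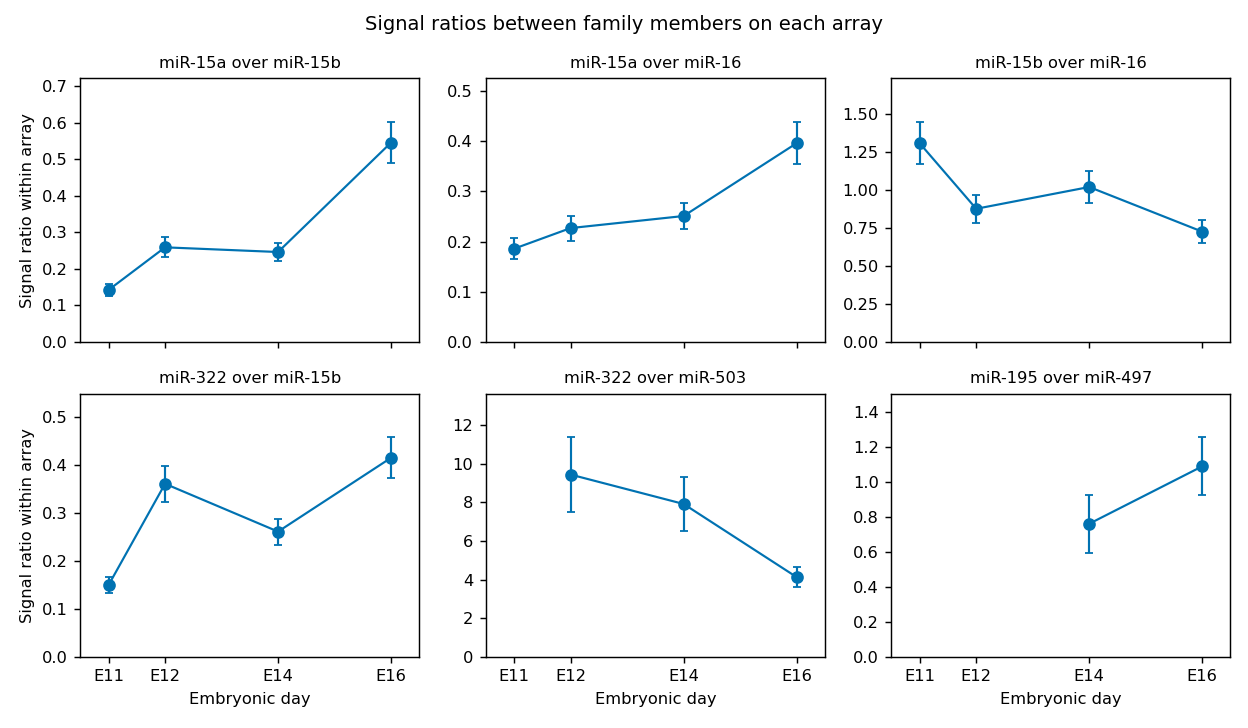
Ratio of the signals of family members on the same array, by embryonic day, with the combined error of both signals as bars; each vertical axis starts at 0. Only the change of a ratio between stages is read, since probes differ in affinity. miR-15a over miR-15b goes from 0.142 at E11 to 0.546 at E16, and miR-322 over miR-503 from 9.44 at E12 to 4.13 at E16.

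The scaling between arrays moved the single differences as a group. Of 6 scalings (the percentile used above, the same percentile over all probes, the median, no scaling at all, quantile normalization and the table the authors supplied), quantile normalization and the authors' table gave the same values for all detected members within 0.1%. The E16 minus E11 difference ran over these scalings from 1.13 to 2.60 for miR-195, from 0.74 to 2.35 for miR-15a and from 0.34 to 1.88 for miR-322, above 0 throughout. It ran from -0.21 to 1.25 for miR-16, and from -1.06 to 0.40 for miR-15b, which turned positive on the deposited signals alone. Without scaling 4 of 5 members passed 2-fold upward and 0 downward, beside 44.9% and 4.39% of all miRNAs. With median scaling 2 passed upward and 0 downward, beside 21.5% and 17.1%, and 1 upward and 0 downward with quantile normalization or the authors' values, beside 16.1% and 31.2%. At 1.5-fold with the percentile scaling 2 of 5 passed upward and 1 downward, beside 20.5% and 52.7%. From E11 to E12 the unscaled signals gave 2 members upward and 0 downward (22.9% and 0.995% of all), and 1.5-fold gave 1 and 1 (19.4% and 25.9%). From E12 to E14, 1.5-fold gave 0 upward and 1 downward (17% and 36.8% of all). The order of the 5 members, from miR-195 down to miR-15b, cannot change under a constant scaling. Quantile normalization, which could change it, left it the same.

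**Figure D4:**
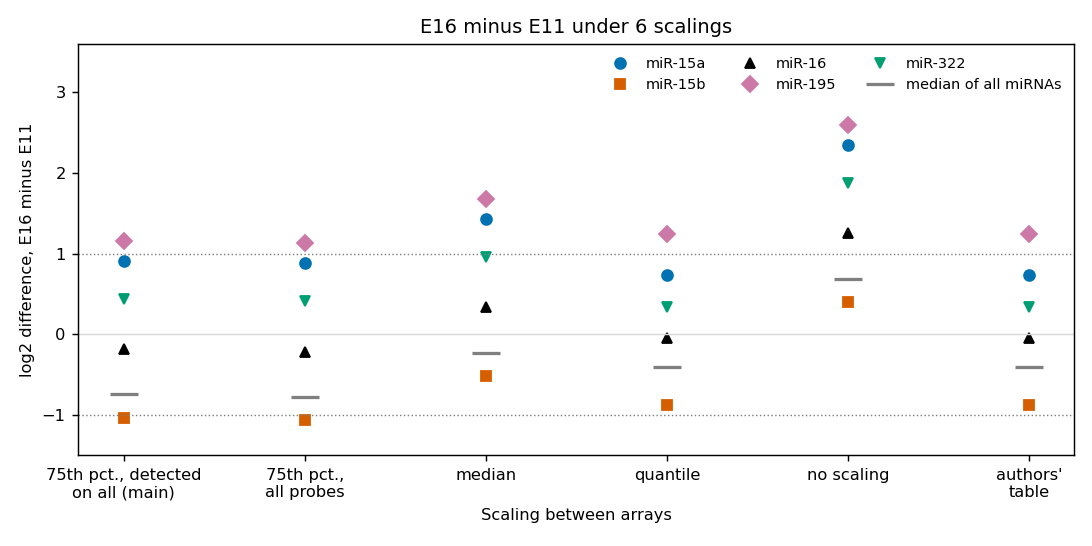
log2 difference from E11 to E16 of the 5 members detected at both stages under 6 scalings between arrays, with the median of all 205 miRNAs as a grey bar and dotted lines at 2-fold. The symbols shift together, from -1.03 for miR-15b and 1.16 for miR-195 under the percentile scaling used in the text to 0.40 and 2.60 without scaling. A constant scaling cannot change their order, and quantile normalization leaves it the same.

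Of the minor arms, the strands of the same precursors that are mostly degraded, 5 had probes. miR-322* was detected with 11.5 ± 2.53, 10.0 ± 2.03 and 15.4 ± 2.58 signal units at E12, E14 and E16, and not at E11. Like miR-322 it was lower at E14 than at E12 (-0.62 ± 0.43 with the percentile scaling), though not beyond 2 errors. Over the 6 scalings this difference ran from -1.33 to -0.21, and the lowest value, from quantile normalization and the authors' table, was beyond 2 errors. miR-15a*, miR-15b*, miR-16* and miR-503* were not detected on any array, and miR-195* and miR-497* had no probe of that name.

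Neighbours of Mir322 and Mir503 on the X chromosome were read beside them, since they lie near each other. Of 7 probes, miR-351, miR-542-3p and miR-450a-5p were detected at every stage, miR-450b-3p at E16 alone (7.76 ± 2.22), and miR-542-5p, miR-450a-3p and miR-450b-5p on no array. miR-450a-5p had signals of 43.2 ± 5.76, 84.1 ± 8.85, 42.4 ± 5.87 and 92.4 ± 8.89 in order of age, and miR-542-3p had 25.9 ± 5.16, 45.8 ± 7.17, 25.2 ± 5.32 and 51.3 ± 6.91. In both, E12 and E16 were high and E11 and E14 low. miR-351, whose seed CCCUGAG is that of miR-125b-5p and not of this family, had signals of 5.88 ± 1.81, 18.3 ± 2.91, 19.3 ± 2.63 and 19.4 ± 2.84.

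From E12 to E14 miR-450a-5p was at -1.40 ± 0.25 and miR-542-3p at -1.27 ± 0.38, each past 2-fold, as were 15.1% of 212 miRNAs. miR-351 was at -0.33, beside -0.65 ± 0.15 for miR-322 and -0.40 ± 0.36 for miR-503. Without scaling miR-450a-5p and miR-542-3p were at -0.99 and -0.86, short of 2-fold, and miR-351 at 0.08. From E14 to E16 miR-450a-5p and miR-542-3p were at 0.77 ± 0.24 and 0.67 ± 0.36, and miR-351 at -0.36 ± 0.29. Across E11 and E16 the 3 neighbours had a median of -0.34, beside 0.44 for miR-322, with 0 of 3 past 2-fold (13.7% of all miRNAs higher and 37.6% lower). This median turned to 0.18 with median scaling and to 1.10 without scaling, where 2 of 3 were higher (44.9% of all).

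miR-103 and miR-107 have a seed that overlaps that of miR-15 after a shift of 1 base, and are printed to show the offset.
miR-103: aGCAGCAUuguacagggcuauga
miR-107: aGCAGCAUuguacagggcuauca

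miR-103 had signals of 498 ± 38.1, 690.3 ± 52.8, 683 ± 51.6 and 786 ± 59.0, and miR-107 had 446 ± 35.5, 680.4 ± 53.3, 643 ± 50.4 and 762 ± 59.3. E16 minus E11 was -0.78 ± 0.15 for miR-103 and -0.66 ± 0.16 for miR-107, near the median of all miRNAs at -0.74. Without scaling it was 0.66 and 0.77, where that median was 0.69.

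Other miRNAs linked to the cell cycle were counted from lists. These lists were chosen with earlier results of these data known, so their counts and medians are descriptions and carry no test. Of 25 probes of families that restrain proliferation (let-7, miR-34, miR-449, miR-26, miR-29 and single members of others), 13 were detected at E11 and E16. They were the let-7 members with miR-98, and miR-26a, miR-26b, miR-24 and miR-193b, so no miR-34, miR-449 or miR-29 probe contributed. Of the 13, 9 passed 2-fold upward and 0 downward, where 13.7% and 37.6% of all miRNAs passed, and the median was 1.42. Apart from miR-193b, those 9 were let-7 members and miR-98. miR-26a (0.59), miR-26b (0.44) and miR-24 (0.75) did not pass, and let-7e was at -0.80. Without scaling 12 were higher, beside 44.9% of all miRNAs, and the median was 2.86. Of 15 probes of proliferation-associated miRNAs (the miR-17-92 cluster with its paralogs, miR-221, miR-222 and miR-21), 11 were detected at E11 and E16. With the percentile scaling 0 were higher and 8 lower, beside 13.7% and 37.6% of all miRNAs, and the median was -1.17. With median scaling 1 was higher and 1 lower, beside 21.5% and 17.1% of all miRNAs, and the median was -0.66. The highest of these was miR-21, at 0.90 with the percentile scaling. Without scaling 2 were higher and 0 lower, beside 44.9% and 4.39% of all, and the median was 0.26. The median of the miR-15 and miR-16 family, 0.44, lay between those of the 2 lists, and the single value of miR-15b, -1.03, near the lower one.

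The courses most like those of the members were sought among the 192 other miRNAs detected on all arrays, as the smallest root mean square difference between log2 profiles over the 4 stages, each centred on its own mean. This measure is unaffected by a constant scaling. It came to 0.48 to 0.76 for the median candidate, depending on the member. The nearest to miR-322 were miR-26b (0.07), miR-100 (0.08) and miR-30b (0.12), and miR-26b had signals of 170.1, 455, 338 and 625. The nearest to miR-15b were miR-182 (0.05), miR-212 (0.07) and miR-1937c (0.08). For miR-16 they were miR-350, miR-140* and miR-151-5p (each 0.09).

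miR-15a and miR-195 shared neighbours. miR-99a (0.10), miR-21 (0.14) and miR-140 (0.15) were the nearest to miR-15a, and miR-99a (0.17), miR-30e (0.18) and miR-21 (0.19) the nearest to miR-195. miR-99a had signals of 167, 333, 386 and 779 in order of age. These names rest on 4 arrays and were chosen as the smallest of 192 values, so they describe the courses and carry no test. The stated errors do not enter the measure, so close ranks may not be resolved, least of all for the dim miR-195.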

How the data were processed

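Each array received 100 ng of total RNA labelled with Cy3 through Agilent's miRNA kit, per the labels' protocols. Per the file headers, the deposited intensity is the total gene signal, with its error and a detection flag, for 718 features including 22 control features; undetected values are written as 0.1. Neither labels nor headers name the scanner software, the array design or how background was handled. The authors' series table holds intensity as well, and all its detected values matched a quantile normalization of the deposited signals within 0.1%.

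Control features were left out, undetected values were not used as levels, and signals were scaled by the 75th percentile of the miRNAs detected on all arrays (Python 3.11.15, pandas 2.3.3), with 5 other scalings as alternatives. Relative errors were combined in quadrature. Calls required 2-fold, and limits were set against the dimmest detected signal on the array without detection. With 1 array per stage no test was possible, and precision is limited by the number of arrays. The code was tested on simulated data. All members were named, with their minor arms, listed neighbours, and the 3 nearest courses. Members and lists were chosen with earlier results of these data known.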

Additional observations from a re-analysis of the deposited data

How the results depend on the processing

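No paired analysis was possible because each stage has 1 array. Quantile normalization and the authors' table are the same values and count as a single alternative in substance. From E11 to E16 the members' median of 0.44 moved to 0.96 with median scaling, 1.88 without scaling and 0.91 with undetected signals set to the lowest detected one. The count at least 2-fold higher moved from 1 to 2, 4 and 3 under these, and to 2 at 1.5-fold. The shares of all miRNAs beside the counts in this section are given above. No share or median of all miRNAs is given for undetected signals set to the lowest one, so those counts and the median of 0.91 cannot be judged. That setting added only miR-497 and miR-503, each undetected at the earlier stage compared and so placed on the higher side by the setting itself. The count lower moved from 1 to 0 with median scaling, quantile normalization, the authors' table and the deposited signals, where miR-15b turned to 0.40. From E11 to E12 the median of 0.25 moved to 0.0705 with the percentile over all probes and 0.92 on the deposited signals. There 2 members were higher instead of 0, and 1 was with undetected signals at the lowest value; at 1.5-fold 1 was higher and 1 lower. From E12 to E14 the median of -0.34 moved to -0.10 with median scaling and to 0.0703 on the deposited signals. With undetected signals at the lowest value 1 member was higher, and at 1.5-fold 1 was lower. From E14 to E16 the median of 0.58 moved to 0.74 with the percentile over all probes, 0.83 with median scaling and 0.94 without scaling. Under these and at 1.5-fold 3 members were higher instead of 2. Constant scalings shift all members of an array together and cannot alter a relative change between members. Under quantile normalization, which can, 21 of 23 relative changes kept their sign. Of the single differences, 13 of 23 kept their sign under all 6 scalings. Quantile normalization, which is not constant within an array, left 6 of 10 relative changes from E11 to E16 beyond 2 errors instead of 8. Requiring also more than 2 combined errors left every count as it was. The dim miR-195, miR-497 and miR-503 had measurement errors of 9.92% to 27.9%, and the spread between animals was not measured.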
